A study of Mus musculus with 8 samples.

Results

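The genes described here are the D-type cyclins Ccnd1, Ccnd2 and Ccnd3, their kinase partners Cdk4 and Cdk6, and the cyclin-dependent kinase (CDK) inhibitors Cdkn1b, Cdkn1c, Cdkn2a, Cdkn2b and Cdkn2c. They were chosen by symbol, and all 10 have a row among the 54532 genes of the deposited count table. The CDK inhibitor Cdkn1a is not one of the 10 and is given only for comparison. RNA was measured by bulk RNA-seq in endothelial cells (ECs) isolated from the lungs of wild-type mice at postnatal day 14. The normoxia group (4 libraries) had been kept in room air at 21% O2, and the hyperoxia group (4 libraries) at 80% O2, in both cases from the day of birth. This exposure is used as a model of bronchopulmonary dysplasia, and the labels name no transgene or further agent in either group. Per the methods of the study, the strain was C57BL/6J, and ECs were cells that bound CD31 beads after bead depletion of CD45-positive leukocytes, so each library is an enriched EC isolate rather than a pure cell type.

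D-type cyclins are the regulatory subunits through which growth signals reach the cell cycle. Bound to CDK4 or CDK6, they phosphorylate the retinoblastoma protein RB, which then releases E2F transcription factors and allows entry into S phase. The INK4 inhibitors, encoded by Cdkn2a, Cdkn2b, Cdkn2c and Cdkn2d, bind CDK4 and CDK6 themselves. The CIP/KIP inhibitors, encoded by Cdkn1a, Cdkn1b and Cdkn1c, act on cyclin-CDK2 complexes and can also bind cyclin D-CDK4 complexes. In the postnatal lung, ECs divide while the capillary bed is being extended.

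The 3 D cyclins share a short motif close to the amino terminus through which they dock on RB. The first 45 coding bases of each gene are shown because they hold this motif and let the 3 paralogs be told apart. Capitals mark its 5 codons, which are codons 5 to 9 in Ccnd1 and codons 3 to 7 in Ccnd2 and Ccnd3. The bases were read from the GENCODE M21 transcripts of mouse build GRCm38, at chr7:144939649-144939693 on the minus strand, chr6:127150729-127150773 on the minus strand and chr17:47593655-47593699 on the plus strand.
Ccnd1: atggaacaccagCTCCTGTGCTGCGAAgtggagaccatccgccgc
Ccnd2: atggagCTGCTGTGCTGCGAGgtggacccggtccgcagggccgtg
Ccnd3: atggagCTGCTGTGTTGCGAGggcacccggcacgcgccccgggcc

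The longest exact run of bases shared between exons of the D cyclins was 20 bases for Ccnd1 and Ccnd2, 17 for Ccnd1 and Ccnd3 and 15 for Ccnd2 and Ccnd3. It was 20 bases between Cdk4 and Cdk6. Runs were compared only between genes of the same family, read in the same direction. Among those pairs the longest was between the neighbouring INK4 genes Cdkn2a and Cdkn2b, at 23 bases. No run of 100 bases was shared between any of the 10 genes.

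Total counts per library were between 16098086 and 18300730 and gave an exact two-sided permutation p of 0.457 between the groups (n = 4 and 4). The mitochondrial share of counts was higher in hyperoxia, at 1.33% ± 0.0966 against 0.960% ± 0.0755 (SD, n = 4 each). Its exact permutation p was 0.0286, the lowest value possible with 4 against 4 libraries. Pan-endothelial markers checked the label. Their summed level was 18364 to 19246 CPM (counts scaled to a common library total) in normoxia and 18395 to 19270 CPM in hyperoxia, led by Cdh5 (VE-cadherin, 4121 and 4035 CPM) and Pecam1 (CD31 itself, 2902 and 2822 CPM). Of the 12 markers 4 were higher in hyperoxia (Eng, Emcn, Cldn5 and Kdr, log2 fold changes of 0.43, 0.42, 0.22 and 0.18), 3 were lower (Tek, Erg and Tie1, -0.79, -0.25 and -0.18) and 5 did not pass. These 7 were named after their values were seen, and Emcn and Tek also stand in the aerocyte and general capillary lists. The labels do not say whether the libraries came from separate animals or pools. The p-values therefore weigh group differences against the spread between these libraries, which may not be the spread between animals.

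All 3 D cyclins were higher in hyperoxia, the kinase Cdk6 and the inhibitors Cdkn1b and Cdkn2c were lower, and the inhibitor Cdkn2b was higher. Of the 10 genes, 9 had enough counts to be tested, and each of the 9 had at least 184 counts in every library. Of these, 7 passed an adjusted p of 0.05 in edgeR's quasi-likelihood test, 4 of them higher and 3 lower. Over all 15564 genes tested, 35.6% passed, 18.5% higher and 17.1% lower. Only Ccnd1 also changed by at least 2-fold, which 6.98% of all genes did (5.62% higher and 1.36% lower). The median log2 fold change was 0.15 over the 9 genes and -0.004 over all genes tested. In bulk RNA, fewer cells of a type and less RNA per cell cannot be told apart, and this holds for every level given here. Alveolar type 2 markers moved with the same comparison (292 to 433 CPM in sum in normoxia, 878 to 2630 CPM in hyperoxia), as did type 1, fibroblast and mural markers and the mitochondrial share, and their part in these changes was not tested.

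**Figure D1:**
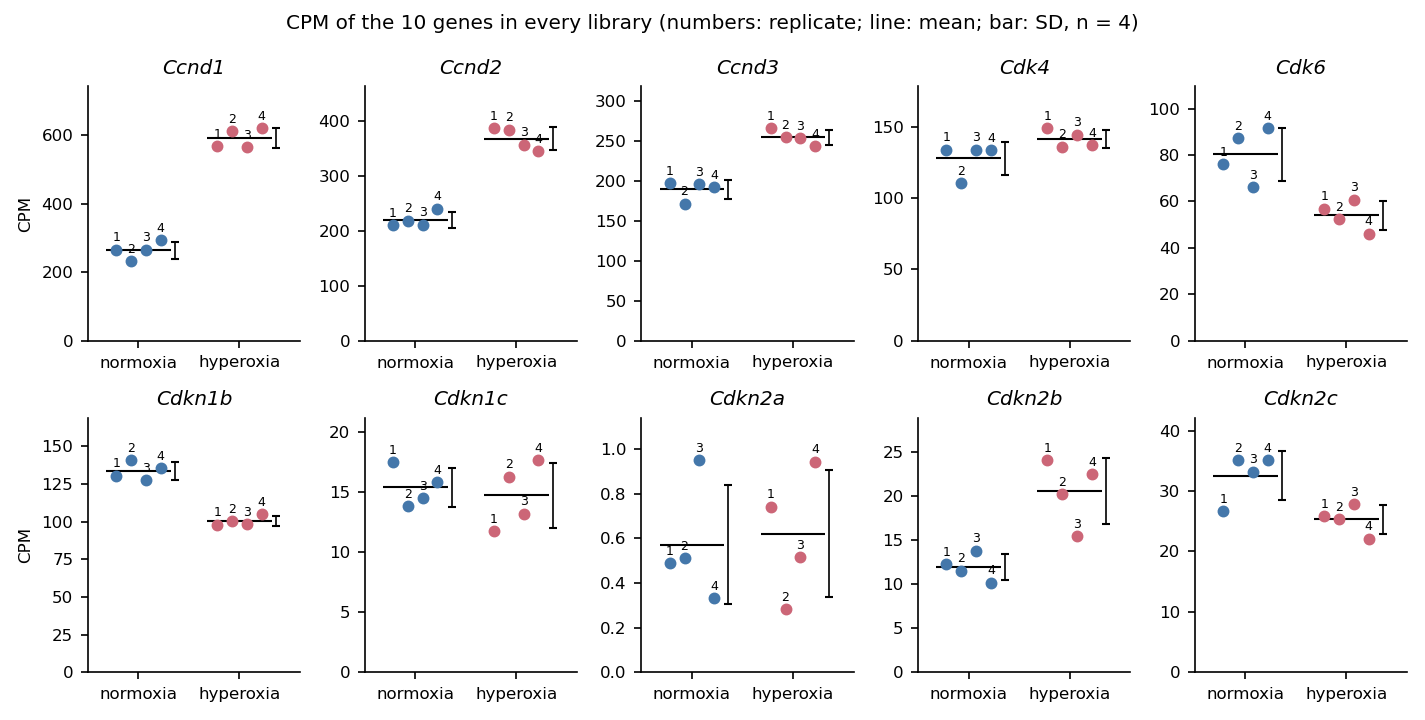
CPM of each of the 10 genes (y axis, linear from 0, scaled per panel) in the 4 normoxia (blue) and 4 hyperoxia (red) libraries, with the replicate number beside each point, the group mean as a line and the SD as a bar. The groups are apart for Ccnd1, Ccnd2, Ccnd3, Cdk4, Cdk6, Cdkn1b and Cdkn2b, and overlap for Cdkn1c, Cdkn2a and Cdkn2c.

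Ccnd1 (ENSMUSG00000070348, GRCm38 chr7:144929931-144939925, minus strand) encodes cyclin D1, the D cyclin best known as a target of mitogen signals. Its level was 265, 232, 266 and 293 CPM in normoxia libraries 1 to 4 and 567, 611, 564 and 619 CPM in hyperoxia libraries 1 to 4. Every hyperoxia library was well above every normoxia library. The mean rose from 264 ± 25.0 to 590 ± 28.8 CPM (SD, n = 4 each), a fold of 2.23. The log2 fold change was 1.16 ± 0.0694 (SE), with a 95% interval of 1.01 to 1.31 and an adjusted p of 1.02e-06. By p-value Ccnd1 stood at rank 90 among all genes tested.

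Ccnd2 (ENSMUSG00000000184, chr6:127125162-127152193, minus strand) encodes cyclin D2. It was at 210, 218, 211 and 240 CPM in normoxia and at 386, 384, 357 and 345 CPM in hyperoxia. The groups did not overlap, and the lowest hyperoxia library was far above the highest normoxia library. The mean rose from 220.0 ± 14.0 to 368 ± 20.4 CPM. On the log2 scale the rise was 0.74 ± 0.0585 (SE), at an adjusted p of 6.19e-06.

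Ccnd3 (ENSMUSG00000034165, chr17:47505051-47599691, plus strand) encodes cyclin D3. It was at 197, 171, 196 and 192 CPM in normoxia and at 265, 254, 253 and 243 CPM in hyperoxia. Here too the groups did not overlap, with a smaller distance between them than for the other D cyclins. The mean rose from 189 ± 12.0 to 254 ± 9.12 CPM. The fitted log2 difference was 0.43 ± 0.0539 (SE), and its adjusted p was 0.000159. The 95% intervals of the 3 log2 fold changes did not overlap (1.01 to 1.31 for Ccnd1, 0.61 to 0.87 for Ccnd2 and 0.31 to 0.54 for Ccnd3).

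**Figure D2:**
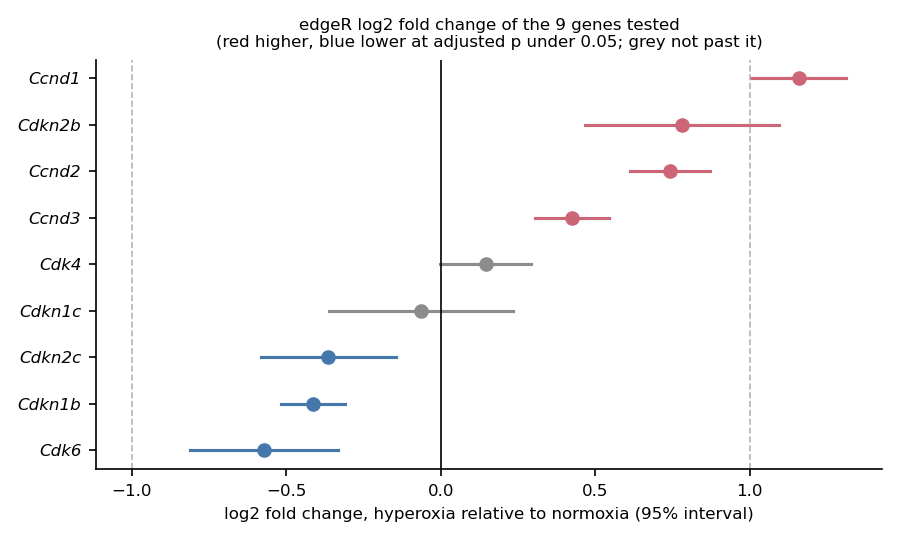
Log2 fold change of hyperoxia relative to normoxia (x axis) with its 95% interval for the 9 genes tested (y axis), with dashed lines at a 2-fold change in either direction. Ccnd1 at 1.16 is the only point beyond a dashed line, and the intervals of Cdk4 and Cdkn1c include 0.

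Cdk4 (ENSMUSG00000006728, chr10:127063534-127067920, plus strand) encodes a kinase that D cyclins activate. Its level was 134, 111, 134 and 133 CPM in normoxia and 149, 136, 144 and 137 CPM in hyperoxia. All hyperoxia libraries were above all normoxia libraries, but library 2 of normoxia was far below the rest of its group, and the next gap was small. The means were 128 ± 11.6 and 141 ± 6.11 CPM. The log2 fold change of 0.15 (95% interval -0.00103 to 0.29) did not pass the test (adjusted p = 0.113).

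Cdk6 (ENSMUSG00000040274, chr5:3341485-3531008, plus strand), the other kinase partner of D cyclins, was at 76.2, 87.3, 66.2 and 91.4 CPM in normoxia and at 56.9, 52.3, 60.8 and 46.1 CPM in hyperoxia. The groups did not overlap, although normoxia spread widely. The mean fell from 80.3 ± 11.4 to 54.0 ± 6.33 CPM. The fitted log2 difference was -0.57 ± 0.109 (SE), and its adjusted p was 0.00212. Of the kinases only Cdk6 passed the test, and the difference between the kinases was not itself tested.

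Cdkn1b (ENSMUSG00000003031, chr6:134920401-134925513, plus strand) encodes p27, which restrains CDK2 and is removed by ubiquitin-dependent breakdown as cells leave G1. Its level was 130.5, 141, 127 and 135 CPM in normoxia and 97.9, 100.4, 98.3 and 105 CPM in hyperoxia. The groups were apart, with little spread in either. The mean fell from 134 ± 5.90 to 100.4 ± 3.14 CPM. The fitted log2 difference was -0.41 ± 0.0464 (SE), and its adjusted p was 7.06e-05.

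Cdkn1c (ENSMUSG00000037664, chr7:143458339-143461050, minus strand) encodes p57, an imprinted gene whose product restrains growth in development. It was at 17.5, 13.8, 14.5 and 15.9 CPM in normoxia and at 11.8, 16.3, 13.2 and 17.7 CPM in hyperoxia. The groups overlapped, with the lowest and the highest library both in hyperoxia. The log2 fold change of -0.06 did not pass (adjusted p = 0.748), and its 95% interval of -0.36 to 0.23 leaves a change within those bounds possible.

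Cdkn2b (ENSMUSG00000073802, chr4:89306299-89311039, minus strand) encodes p15, an INK4 inhibitor known as a target of TGF-beta signaling. It was at 12.3, 11.6, 13.8 and 10.2 CPM in normoxia and at 24.1, 20.2, 15.5 and 22.5 CPM in hyperoxia. Every hyperoxia library was above normoxia, but library 3 of hyperoxia was close to it. The mean rose from 12.0 ± 1.52 to 20.6 ± 3.76 CPM. The fitted log2 difference was 0.78 ± 0.142 (SE), and its adjusted p was 0.00161. Without library 3 of hyperoxia the log2 fold change was 0.90.

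Cdkn2c (ENSMUSG00000028551, chr4:109660876-109667189, minus strand) encodes p18, another INK4 inhibitor. It was at 26.6, 35.1, 33.2 and 35.1 CPM in normoxia and at 25.9, 25.4, 27.8 and 22.1 CPM in hyperoxia. The groups overlapped, because library 1 of normoxia lay below library 3 of hyperoxia. The mean fell from 32.5 ± 4.02 to 25.3 ± 2.36 CPM. The fitted log2 difference was -0.36 ± 0.0994 (SE), and its adjusted p was 0.0157.

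Cdkn2a (ENSMUSG00000044303, chr4:89274471-89294653, minus strand) encodes both p16INK4a and ARF, and its single row does not separate the transcripts of these proteins. It had 8, 9, 17 and 6 counts in normoxia and 13, 5, 9 and 17 counts in hyperoxia, from 0.28 to 0.95 CPM over all libraries. The groups overlapped throughout. The gene did not pass the filter on low counts and so was not among the genes tested at this depth, with 40 counts in normoxia and 44 in hyperoxia.

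Counting all 9 tested genes, 7 had groups that did not overlap in CPM, 5 higher (the D cyclins, Cdk4 and Cdkn2b) and 2 lower (Cdk6 and Cdkn1b). Over all genes tested, 35.4% had groups without overlap, 17.8% higher and 17.6% lower.

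The upstream windows of the inhibitors with the smallest p-value in each direction, Cdkn1b (lower) and Cdkn2b (higher), are printed to show the bases before their start sites. Each holds the 250 bases before the RefSeq start (GRCm38.p6). RefSeq windows were matched for 7 of the 10 genes, and Ccnd1, Ccnd2 and Cdkn1c had none. In Cdkn1b (chr6:134920151-134920400, plus strand) capitals mark the CCAAT box (CCAAT) at positions -161 and -35 and the GC box (GGGCGG) at -61. In Cdkn2b (chr4:89311033-89311282, minus strand) capitals mark a cyclic AMP response element (TGACGTCA) at -46.
Cdkn1b: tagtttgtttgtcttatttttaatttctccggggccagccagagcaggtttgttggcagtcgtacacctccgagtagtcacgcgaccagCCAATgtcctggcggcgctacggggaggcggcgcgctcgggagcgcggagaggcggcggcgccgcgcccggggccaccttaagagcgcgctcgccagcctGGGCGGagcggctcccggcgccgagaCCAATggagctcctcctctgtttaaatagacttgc
Cdkn2b: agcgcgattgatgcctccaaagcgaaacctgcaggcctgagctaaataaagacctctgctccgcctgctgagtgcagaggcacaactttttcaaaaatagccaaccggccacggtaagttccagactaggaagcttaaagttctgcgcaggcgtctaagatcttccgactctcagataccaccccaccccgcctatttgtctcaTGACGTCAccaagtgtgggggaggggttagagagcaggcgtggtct

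Motifs were searched on both strands, and none of them contains another. Among 32851 RefSeq windows, 33.8% held a CCAAT box, 32.7% a GC box and 1.55% the cyclic AMP response element. A GC box was also found for Ccnd3, Cdk4, Cdkn2a and Cdkn2c, and a CCAAT box for Ccnd3. An E-box (CACGTG, 6.02% of all windows) was found for Cdk4 and Cdk6, a TATA box (TATAAA, 12.4%) for Cdk6, and an E2F motif (TTTCCCGC, TTTCGCGC, TTTGGCGC or TTTGCCGC, 1.86%) for Cdkn2a. The 7 matched genes had 10 windows, because Cdkn2a, Cdkn2c and Ccnd3 each had more than a single start. The E2F motif and GC box of Cdkn2a lay only in the window at chr4:89294620-89294869. Its other window, at chr4:89282193-89282442, held none of the motifs searched. The GC box of Cdkn2c and the CCAAT box of Ccnd3 likewise lay in a single window of each gene. No window of the matched genes held an AP-1 motif (TGANTCA, 6.75%) or the p53 half-site (7.13%). These matches describe letters in the windows and not binding.

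Levels of different genes were compared in FPKM, which divides by gene length. In normoxia the order was Ccnd1, Cdk4, Cdkn1b, Ccnd2, Ccnd3, Cdkn2c, Cdkn2b, Cdkn1c, Cdk6 and Cdkn2a, from 55.6 ± 5.43 FPKM for Ccnd1 to 0.483 ± 0.225 FPKM for Cdkn2a (SD, n = 4). The ranges of Ccnd2 and Ccnd3, of Cdkn2c and Cdkn2b, and of Cdkn2b and Cdkn1c overlapped. In hyperoxia Ccnd1 was again the highest, at 125 ± 6.11 FPKM, followed by Cdk4 at 43.3, and Cdkn1b had passed from rank 3 to rank 5, below Ccnd2 (38.9 FPKM) and Ccnd3 (28.8 FPKM). Cdkn2b at 14.7 FPKM was above Cdkn2c at 9.37 FPKM, the reverse of normoxia in order, where their ranges overlapped. In hyperoxia only the neighbours Cdkn2c and Cdkn1c had overlapping ranges. Among all genes tested, mean FPKM of Ccnd1 was at percentile 97.1 and of Cdk6 at percentile 51.9. The FPKM length is that of all annotated exons of a gene, so a gene with long exons outside the transcript used is set too low.

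The summed FPKM of the 3 D cyclins was 100.2 ± 7.44 in normoxia and 192 ± 5.60 in hyperoxia, without overlap. Ccnd1 made up 55.5% ± 1.36 of this sum in normoxia and 64.8% ± 1.81 in hyperoxia, while Ccnd2 went from 23.2% to 20.2% and Ccnd3 from 21.4% to 15.0%, each without overlap. The summed FPKM of Cdk4 and Cdk6 was 44.8 ± 3.44 and 47.2 ± 2.19, with overlap. The ratio of the D cyclin sum to the kinase sum was 2.24 ± 0.0663 in normoxia and 4.09 ± 0.295 in hyperoxia.

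The ratio of Cdk4 to Cdk6 ranged from 5.45 to 8.70 in normoxia and from 10.2 to 12.8 in hyperoxia. The ratio of Ccnd1 to Cdkn1b was 1.92 ± 0.222 and 5.68 ± 0.149. Summed FPKM of Cdkn1b and Cdkn1c was 36.6 ± 1.15 in normoxia and 29.1 ± 1.98 in hyperoxia, without overlap. The 3 INK4 genes described here were together at 21.0 ± 1.63 and 24.6 ± 2.27, with overlap, but Cdkn2b made up 40.7% ± 4.84 of this sum in normoxia and 59.4% ± 6.04 in hyperoxia. This sum leaves out Cdkn2d, the other INK4 gene, so it is not the total of the family. Over all libraries Cdkn2d had a mean of 20.6 FPKM, above Cdkn2b (11.6) and Cdkn2c (10.7), and it was lower in hyperoxia (log2 fold change -0.50). The ratios and shares are descriptions with no test.

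**Figure D3:**
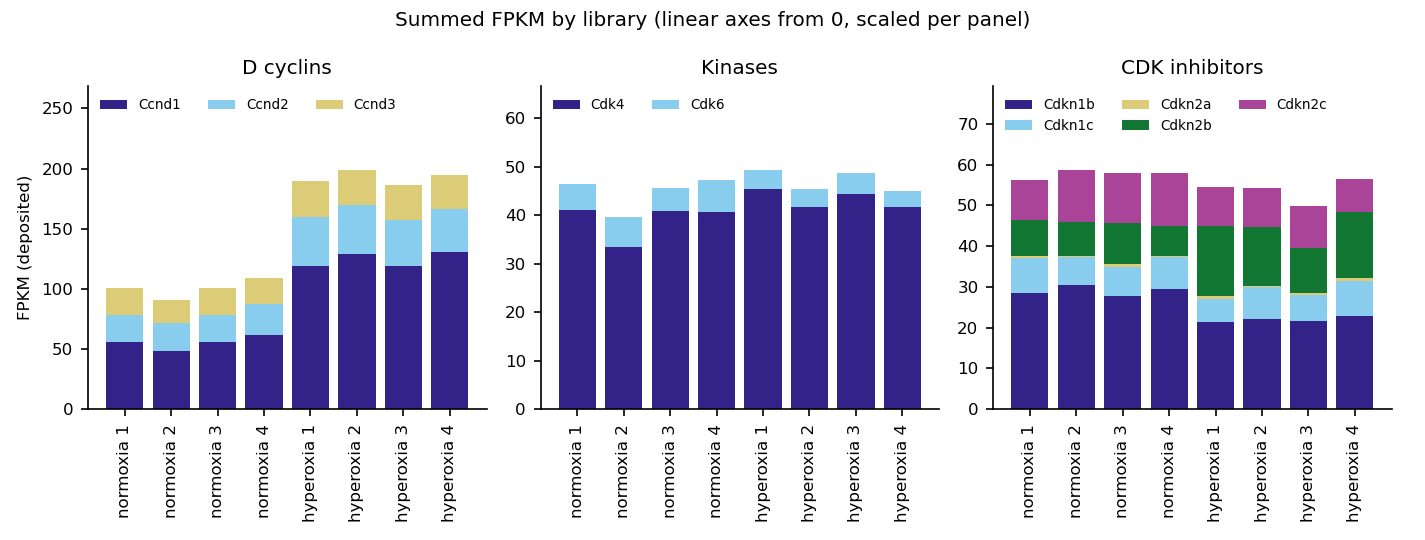
Summed FPKM (y axis, linear from 0, scaled per panel) of the D cyclins, the kinases and the 5 inhibitors in each of the 8 libraries (x axis), with colors for single genes. The D cyclin bars reach 90.8 to 109 FPKM in normoxia and 186 to 199 FPKM in hyperoxia, while the kinase bars overlap.

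Cdkn1a, which encodes the p53 target and CDK inhibitor p21, is set beside these genes because it is the other CIP/KIP inhibitor. It rose from 168 ± 25.2 to 909 ± 57.1 CPM, which is 2.44 ± 0.1 (SE) on the log2 scale at an adjusted p of 8.44e-08. The ratio of the D cyclin sum to Cdkn1a, both in FPKM, was 2.17 ± 0.317 in normoxia and 0.757 ± 0.0274 in hyperoxia, whereas the ratio of the D cyclin sum to the 5 inhibitors described here was 1.74 ± 0.143 and 3.58 ± 0.140. The direction of the cyclin-to-inhibitor ratio therefore depended on which inhibitors were counted.

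The other inhibitors and CDK-binding partners (7 genes tested) had 2 higher, 2 lower and 3 that did not pass. Over all genes tested the shares were 18.5% higher and 17.1% lower, and the counts of every list are to be read beside them. Ccng1, a p53 target encoding cyclin G1, rose from 35.3 to 115 CPM (1.70 on the log2 scale at an adjusted p of 1.79e-07). The lower genes were Ccng2 (cyclin G2, log2 fold change -0.82) and Cdkn2d (p19, -0.50), both named after their values were seen.

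In the RB and E2F list, 3 of 13 genes were higher, 4 were lower and 6 did not pass, with a median log2 fold change near 0. Tfdp1, which encodes the E2F partner DP1, had the highest mean FPKM of the list, called most abundant here and in the following lists, and rose from 70.2 to 82.1 CPM (0.23 on the log2 scale at an adjusted p of 0.0065). The other higher genes were E2f3 (log2 fold change 0.43) and E2f1 (0.41), and the lower ones were Rb1 (-0.26), Rbl1 (-0.33), E2f4 (-0.18) and Tfdp2 (-0.38), all named after their values were seen. Of the 6 genes listed under the DREAM complex, 4 were lower and 0 higher, with a median of -0.26. This list includes Mybl2, which is not a subunit of the complex, and leaves its RB and E2F family subunits to the list above. It therefore does not give the level of the complex as a whole. The most abundant gene of the list, Rbbp4, went from 152 to 138 CPM (-0.13 on the log2 scale, adjusted p = 0.0332). The lower genes also included Lin54, Lin9 and Lin52, named after their values were seen.

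Of the late G1 cyclins, kinases and phosphatases, 1 of 8 tested genes was higher, 2 were lower and 5 did not pass. Cdk2, the kinase that p27 and p21 restrain, fell from 72.7 ± 5.13 to 59.2 ± 5.76 CPM (-0.30 on the log2 scale at an adjusted p of 0.0108). Cdc25a, which encodes a CDK-activating phosphatase, was higher (log2 fold change 0.29), and Ccnh (cyclin H) was lower (-0.23), both named after their values were seen. Of the factors that turn over D cyclins and p27, 4 of 14 were higher, 1 was lower and 9 did not pass. The most abundant of them, Ddb1, a subunit of CUL4 ubiquitin ligases, went from 360 to 403 CPM (0.16 on the log2 scale, adjusted p = 0.0169). The other higher genes were Fbxo4 (log2 fold change 0.61), Fbxw8 (0.19) and Ambra1 (0.15), which encode parts of ligases for D cyclins, and Fbxo31 was lower (-0.25). These were named after their values were seen.

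Of the 20 upstream transcriptional regulators, 4 were higher, 9 were lower and 7 did not pass, with a median of -0.14. Smad3, a mediator of TGF-beta signaling, rose from 10.1 to 20.9 CPM (1.04 on the log2 scale, adjusted p = 7.59e-05). Mycn, a MYC family factor, fell from 27.1 to 13.3 CPM (-1.02 on the log2 scale, adjusted p = 0.000219). Junb, the most abundant per length, was at 1112 and 1044 CPM and did not pass (adjusted p = 0.222). The other higher genes were Myc (log2 fold change 0.48), Foxo3 (0.38) and Fos (0.20). The other lower genes were Foxo4 (log2 fold change -0.41), Foxo1 (-0.39), Bmi1 (-0.46), Ezh2 (-0.45), Rnf2 (-0.34), Ets1 (-0.46), Ets2 (-0.20) and Men1 (-0.27). Foxo3 thus rose while the related Foxo1 and Foxo4 fell. All 11 were named after their values were seen.

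Most genes that mark dividing cells did not pass the test, and neither did most of all genes tested (35.6% passed). Of 17 proliferation markers, 2 were higher, 1 was lower and 14 did not pass. Their median was 0.02 on the log2 scale, and their summed level was 630.3 to 844 CPM in normoxia and 709 to 863 CPM in hyperoxia. Pcna, which encodes the DNA polymerase clamp, averaged 134 ± 11.2 CPM in the normoxia libraries and 134 ± 5.88 CPM in those of hyperoxia (fitted log2 fold change 0.001 ± 0.0632 SE, adjusted p = 0.991). The higher genes were Mcm5 (log2 fold change 0.38) and Tyms (0.38), and the lower gene was Cdc20 (-0.40), named after their values were seen.

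**Figure D4:**
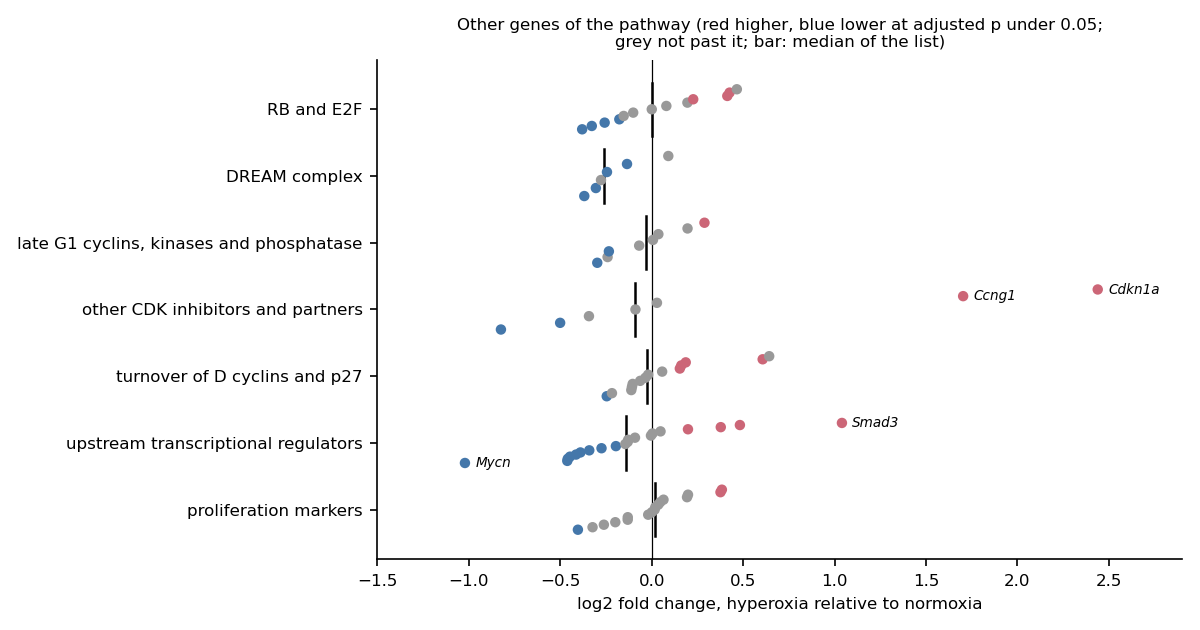
Log2 fold change of hyperoxia relative to normoxia (x axis) for each tested gene of the 7 pathway lists (y axis), red or blue where the adjusted p passed 0.05 and grey where it did not, with the list median as a black bar. Cdkn1a at 2.44 and Ccng1 at 1.70 lie farthest to the right, and list medians lie between -0.26 and 0.02.

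RNA of other cell types moved with the same comparison. All 10 alveolar type 2 markers were higher in hyperoxia, with a summed level of 292 to 433 CPM in normoxia and 878 to 2630 CPM in hyperoxia, led by Sftpc (surfactant protein C, 106 and 1121 CPM) and Lyz2 (77.3 and 225 CPM). All 8 alveolar type 1 markers were higher, at 78.2 to 97.5 against 165 to 468 CPM, led by Ager (25.4 and 153 CPM) and Hopx (42.2 and 65.5 CPM). Fibroblast markers were higher for 6 of 8 tested, at 399 to 575 against 649 to 1206 CPM, led by Fn1 and Col3a1. Fn1 alone was at 274 and 574 CPM, a large part of the sum. Pdgfra and Tcf21 did not pass, and were named after their values were seen. Mural and myofibroblast markers were higher for 7 of 8 tested, at 47.1 to 82.8 against 103 to 181 CPM, led by Rgs5 and Pdgfrb. The fibroblast marker Lum and the smooth muscle marker Cnn1 were at 0 in some libraries.

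Within ECs, all 9 aerocyte capillary markers were higher, at 2211 to 2669 against 4047 to 4540 CPM, led by Prx and Apln. Of 9 general capillary markers 1 was higher and 5 were lower, at 11129 to 12690 against 9188 to 10559 CPM, led by Ptprb and Cd93. The higher gene was Cd93, and the lower ones were Kit, Aplnr, Tek, Gpihbp1 and Ptprb. Leukocyte markers, which the CD45 depletion targets, had 1 of 9 higher and 1 lower, at 128 to 248 against 129 to 240.2 CPM, led by Ptprc (CD45) and Csf1r. The higher gene was Lyz1 and the lower gene Cd68. The markers named here that do not lead their list were named after their values were seen. Of 5 airway epithelial markers 2 were tested (Scgb1a1 and Foxj1), neither passed, and their summed level was at most 3.20 CPM.

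Among hyperoxia libraries, library 3 had the lowest summed level of alveolar type 2, alveolar type 1, fibroblast and mural markers. It also had the lowest aerocyte sum (4047 CPM), the highest general capillary sum (10559 CPM) and the lowest Cdkn2b (15.5 CPM) of the hyperoxia libraries. Its leukocyte sum (129 CPM) was the lowest and its proliferation marker sum (863 CPM) the highest of that group. Without it, the log2 fold changes were 1.18 for Ccnd1, 0.76 for Ccnd2, 0.43 for Ccnd3, -0.63 for Cdk6, -0.40 for Cdkn1b, 0.90 for Cdkn2b and -0.41 for Cdkn2c, and each passed the test. Cdk4 at 0.13 and Cdkn1c at -0.01 did not pass without it. The part of other cell types and of the shift between capillary markers in these results was not tested.

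Genes whose level across the 8 libraries was most like that of the called members with the largest changes were found by the root mean square (RMS) difference of centered log2 CPM, over 12654 protein-coding genes. For Ccnd1 these were Pls3 (RMS 0.0542, from 128 to 281 CPM) and Tmod2 (0.0704, from 143 to 307 CPM). For Ccnd2 they were Pros1 (0.0550, from 109.8 to 181 CPM) and Eml2 (0.0640, from 13.8 to 22.5 CPM). For Cdkn2b they were Fah (0.0922, from 2.22 to 3.97 CPM) and Map3k5 (0.0979, from 12.7 to 21.6 CPM).

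Exons of 6 of the 10 genes overlap exons of a gene on the opposite strand, and use of strand in the counting was not given in the sources used here, so reads over these stretches cannot be assigned to either gene with certainty. Oraov1 overlaps 23.4% of the exon bases of Ccnd1, and went from 19.5 to 15.98 CPM (-0.29 on the log2 scale at an adjusted p of 0.0358), opposite to Ccnd1. Tspan31 overlaps 19.7% of Cdk4 and rose from 40.1 to 49.8 CPM (0.31 on the log2 scale, adjusted p = 0.00146). Bysl overlaps 4.11% of Ccnd3 and rose from 20.1 to 30.4 CPM (0.60 on the log2 scale, adjusted p = 0.00028). The genes that overlap Ccnd2, Cdk6 and Cdkn1c were at most 0.219 CPM in either group mean. Cdkn1b, Cdkn2a, Cdkn2b and Cdkn2c had no such overlap.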

How the data were processed

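Bulk RNA-seq of 4 normoxia and 4 hyperoxia EC libraries was used, grouped by sample title. The authors deposited a table of gene counts and a table of FPKM for the same 54532 genes. The submitters' processing notes name HISAT2 2.0.5, featureCounts 1.5.0-p3 and build mm10. Strand and multimapping settings were not given in the sources used here. The deposited FPKM were used as they stand, for levels between genes.

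Counts were tested with edgeR 4.0.16 (R 4.3.3): TMM normalization, filterByExpr, quasi-likelihood test with group as the only term, and Benjamini-Hochberg adjustment over the 15564 genes kept (99.8% or more of each library's counts). A gene passed at an adjusted p under 0.05, and a second rule added a log2 change of 1 or more in either direction. CPM are TMM-normalized. SEs follow from the F statistic. Total counts of 16098086 to 18300730 set the precision, and the biological coefficient of variation was 0.120. Scripts were tested on simulated data. The study used DESeq2, and DESeq2 1.42.0 and limma 3.58.1 served as alternatives beside other scalings, filters, thinning, a replicate block and omission of each library.

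The 10 genes and the lists were chosen with earlier results of these data known. By rule, the named genes are the 10, genes of each pathway list past both thresholds or highest in mean FPKM, the 2 markers per cell type highest in CPM, the 2 genes most alike to each of 3 members, and genes with overlapping exons. Other genes that passed in a list are named after their values were seen, and are marked so. Exons, coordinates and coding bases were taken from GENCODE M21, and promoters from RefSeq.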

Additional observations from a re-analysis of the deposited data

Results flagged for a closer look

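Among 64 groups of 4 libraries checked with Dixon's criterion, 2 held a library far from the others, and chance gives about 1 in 20, or 3.2. Cdk4 in library 2 of normoxia was at 110.6 CPM while the other 3 normoxia libraries were between 133 and 134 CPM. The summed FPKM of Cdkn1b and Cdkn1c in library 3 of normoxia was 34.9 while the other 3 were between 37.1 and 37.3. Without library 2 of normoxia the log2 fold change of Cdk4 was 0.08 (adjusted p = 0.222 in edgeR), against 0.15 with it, and it did not pass in either case.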

How the results depend on the processing

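All 7 calls among the 10 genes kept their direction and an adjusted p under 0.05 under all 20 alternatives, and Ccnd1 was past 2-fold in each. Log2 fold changes ranged over the alternatives from 1.10 to 1.21 for Ccnd1, 0.72 to 0.78 for Ccnd2, 0.38 to 0.45 for Ccnd3, -0.66 to -0.46 for Cdk6, -0.44 to -0.39 for Cdkn1b, 0.70 to 0.90 for Cdkn2b and -0.45 to -0.30 for Cdkn2c, whose largest adjusted p was 0.0483. Cdk4 (0.08 to 0.17) did not pass under any. Cdkn1c, which did not pass, ranged from -0.16 to 0.0322 as single libraries were left out and changed sign. Cdkn2a, which only some of the alternatives tested and which had 5 to 17 counts per library, ranged from -0.0738 to 0.36 and did not pass. Groups without overlap numbered 6 under upper-quartile scaling and under library totals, where Cdk4 overlapped, and 8 without library 1 of normoxia or library 3 of hyperoxia, where Cdkn2c was apart too. Over all genes, 330 passed both thresholds with limma on log2(FPKM + 1), against 1087, since the pseudocount shrinks low genes. Replicate numbers gave no sign of pairing between libraries (correlations of same-numbered libraries from -0.14 to 0.12), which cannot show that the libraries were unpaired. A replicate block in the same edgeR test gave 4792 genes past the adjusted p against 5535, and changed no call among the 10 genes. Depth limits Cdkn2a.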
